A study of Mus musculus and Homo sapiens with 110 samples.

Results

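Coagulation and complement factors are made largely by hepatocytes and secreted into the blood, and 35 genes of this kind were followed in the livers of mice given small interfering RNAs (siRNAs) against *Ttr* or *Marc1*. The genes were taken as a list of symbols, 35 of the 49110 genes of GENCODE vM21 with counts in the files. The list was not cut by any measured value, but it was chosen with earlier results of these data known. All 35 passed the filter on low counts in each of the 3 mouse studies. They fall into 10 groups by role: vitamin K-dependent procoagulants, vitamin K-dependent anticoagulants, factor V with the B chain of factor XIII, the contact and kinin system, serpin inhibitors, fibrinolysis, complement initiators, the convertase proteases, complement regulators and terminal complement.

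Coagulation is a cascade of serine protease zymogens that ends in thrombin and fibrin, and serpins, protein C and protein S restrain it while plasmin removes the clot. Complement is a second cascade of liver-made proteases, started by antibodies through C1, by sugars through mannose-binding lectins and their proteases, or spontaneously through factor B. These arms meet at the C3 and C5 convertases and end in the pore made by C5b to C9. Several of these proteins are cleared from plasma quickly, so their levels in blood are used to judge how well the liver makes protein.

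The study compared a parent siRNA with forms whose guide strand carries 1 alkyl phosphonate, a charge-neutral backbone linkage, between its nucleotides 6 and 7. The linkage was methoxypropyl phosphonate (MOP) or isobutyl phosphonate (iBu). In these forms nucleotide 6 is also a deoxyguanosine, so the linkage and the sugar of this nucleotide change together. The siRNAs were conjugated to N-acetylgalactosamine (GalNAc), a sugar taken up by the asialoglycoprotein receptor of hepatocytes, and were injected once under the skin, and the control mice of each study received phosphate-buffered saline (PBS). The first *Ttr* study held 16 livers taken at 7 days, 4 each from mice given PBS or the parent at 10, 30 or 100 mg/kg. The second *Ttr* study held 28 livers, 4 each from mice given PBS, MOP or iBu at 10, 30 or 100 mg/kg, and its labels give no day. The *Marc1* study held 32 livers taken at 3 days: 8 from mice given PBS, 8, 4 and 4 from mice given the parent at 10, 2 and 0.4 mg/kg, and 4, 2 and 2 from mice given iBu at 10, 2 and 0.4 mg/kg. Age and strain are not in the labels. The methods describe liver RNA from C57BL/6J mice aged 5 weeks that were given *Ttr* siRNAs, and BALB/c mice aged 7 to 8 weeks for the tolerability of both siRNAs, without tying the sequenced livers to either. The other 34 of 110 libraries came from human A431 cells and were not used here.

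Each library counted reads at the 3′ ends of transcripts (QuantSeq), with 1637184 to 3009660 estimated reads per library in the first *Ttr* study, 2036188 to 3872074 in the second and 3411278 to 7120501 in the study of *Marc1*. Levels are given as CPM, counts scaled to a common library size, and changes as log2 differences with 95% intervals. A gene was called changed at a Benjamini-Hochberg adjusted p under 0.05 over all genes tested, in edgeR's quasi-likelihood test. *Ttr* was at 8596 to 10891 CPM in the PBS mice of its studies and at 68.5 to 240 CPM in the treated mice. *Marc1* was at 199 to 267 CPM in PBS mice, but 4 libraries labelled as given the parent siRNA stood at that level: mice Y-1 (229.5) and Y-2 (237.8) at 10 mg/kg, and mice Z-1 (249.2) and Z-2 (236.5) at 2 mg/kg. The other 6 libraries labelled parent 10 mg/kg held 21.3 to 33.4 CPM. These libraries go against their labels, so results that use them are given with and without them. *Marc1* titles carry the letters A to L or T to AA, whose meaning the labels do not give, and iBu occurs only among the first.

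The sets of markers that define the labelled tissue were present, with 9 of 10 hepatocyte markers in the files and none of these 9 at 0 in any group described here. In bulk liver, fewer cells of a type cannot be told apart from less RNA per cell. Changes in hepatocyte-made transcripts below are changes in their share of all reads.

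Over 15 comparisons of a compound and dose with the PBS mice of its study, 525 tests of the 35 genes gave 9 calls, 3 higher and 6 lower, where 0.729% of all tests of all genes in these comparisons were calls. Of these, 8 came from *Marc1* parent at 10 mg/kg and 1, *Pros1*, from *Ttr* parent at 100 mg/kg. Only 1 call, *C2* under *Marc1* parent at 10 mg/kg, met the study's own criteria for a differentially expressed gene (over 2-fold, p under 0.01 and q under 0.1), which 1.68% of all genes met there. Between compounds, 12 differences gave 4 calls, where 0% to 1.72% of all genes were called in single differences. In all, 10 of the 35 genes were called at least once while 25 were called nowhere. The share of all genes called at least once was not counted.

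**Figure D1:**
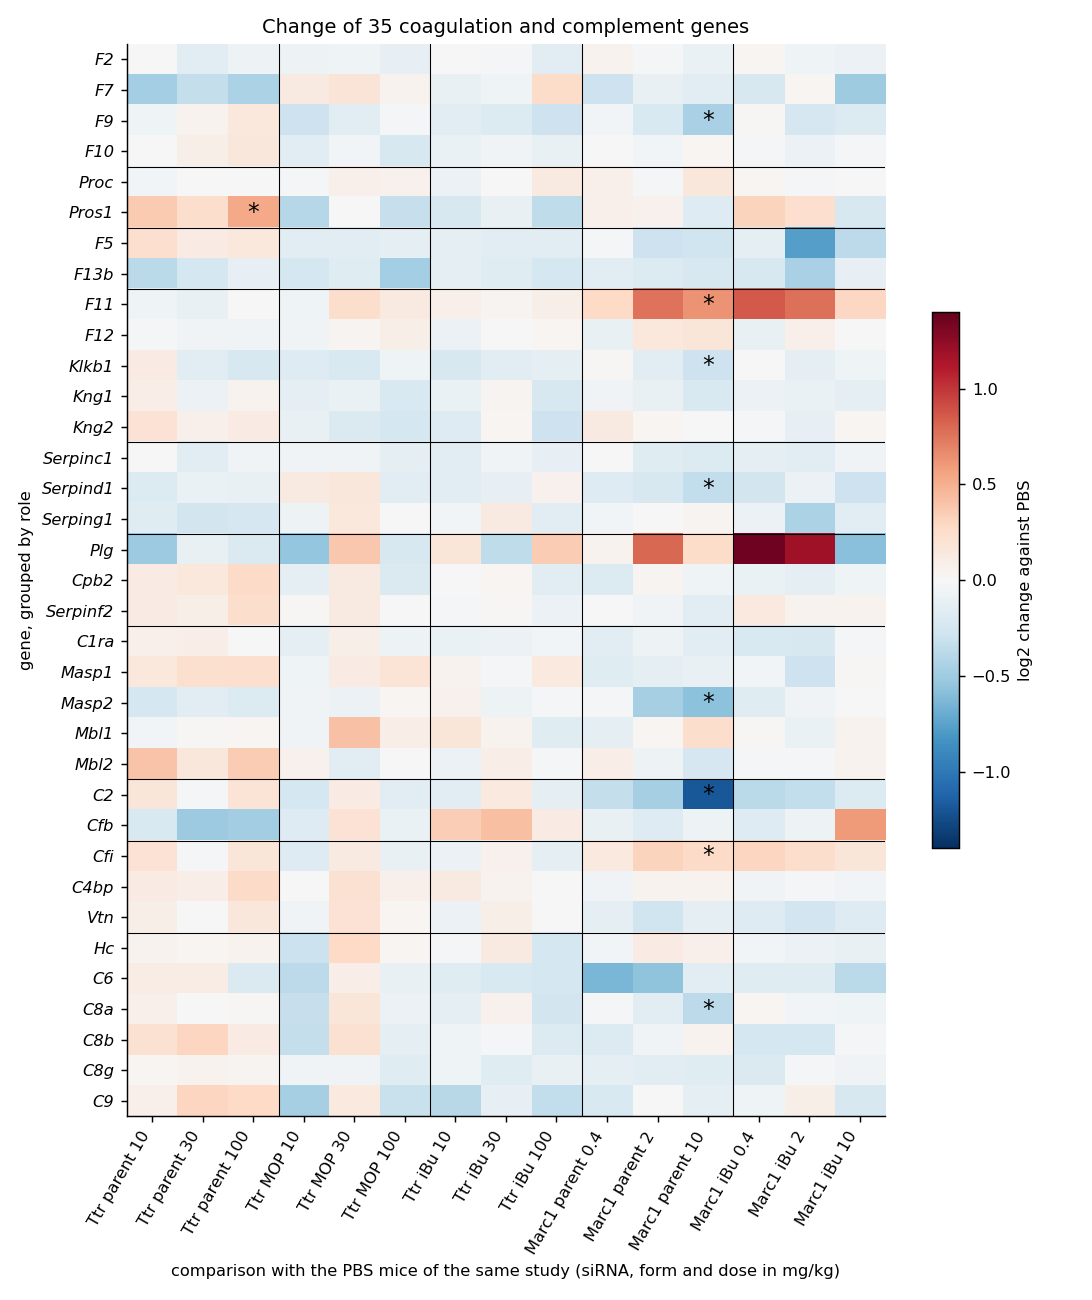
Log2 change of each of the 35 genes (rows, grouped by role) in the 15 comparisons with PBS (columns), with calls at an adjusted p under 0.05 marked. Most cells lie close to 0, and the marked ones are 8 genes under *Marc1* parent at 10 mg/kg and *Pros1* under *Ttr* parent at 100 mg/kg.

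At 10 mg/kg the parent *Marc1* siRNA was followed at 3 days by lower levels of *C2*, *Masp2*, *C8a*, *F9*, *Klkb1* and *Serpind1* and by higher levels of *F11* and *Cfi*. These 8 of 35 genes compare with 6.69% of the 11770 genes tested that were called, 2.61% higher and 4.09% lower. The median log2 change of the 35 genes was −0.13 and that of all genes 0.01, and 24 of the 35 lay below 0 against 48.2% of all genes. The 35 genes were chosen with earlier results of these data known, so these shares are values only. The summed level of the 35 genes was 12680 to 13971 CPM in PBS mice and 11309 to 13163 CPM in the parent group, so the groups overlapped.

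*C2*, the serine protease that C1s and the MASP proteases cleave to build the classical and lectin C3 convertase, changed most. Its lowest, median and highest levels were 41.4, 50.8 and 69.3 CPM in the 8 PBS mice, and 16.6, 19.8 and 35.6 CPM in the 8 mice labelled parent 10 mg/kg. No treated mouse reached the lowest PBS mouse. The mean fell from 51.3 ± 8.81 to 22.4 ± 6.49 CPM (SD, n = 8 each), a log2 change of −1.19 (SE 0.131, interval −1.45 to −0.92, edgeR adjusted p = 1.59e-07). A two-sided exact permutation test over mice gave p = 0.000155, the smallest that 8 against 8 mice allow. Mice Y-1 and Y-2, whose *Marc1* was at the PBS level, had *C2* at 29.0 and 20.2 CPM, below every PBS mouse. Without the 4 libraries that go against their labels the change was −1.24 (edgeR adjusted p = 5.72e-07). Within titles A to L it was −1.50 (adjusted p = 2.69e-06), and within T to AA −0.92 (adjusted p = 0.0524).

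The gene lies on chromosome 17 of GRCm38 from 34862604 to 34898265, on the minus strand. Of its reads, 95.6% were assigned to 1 short annotated coding transcript of 1946 bases that shares its 3′ end with the full-length form, so the level does not separate these forms. *Gm20547*, which spans *C2* and *Cfb* on the same strand, had no reads assigned.

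**Figure D2:**
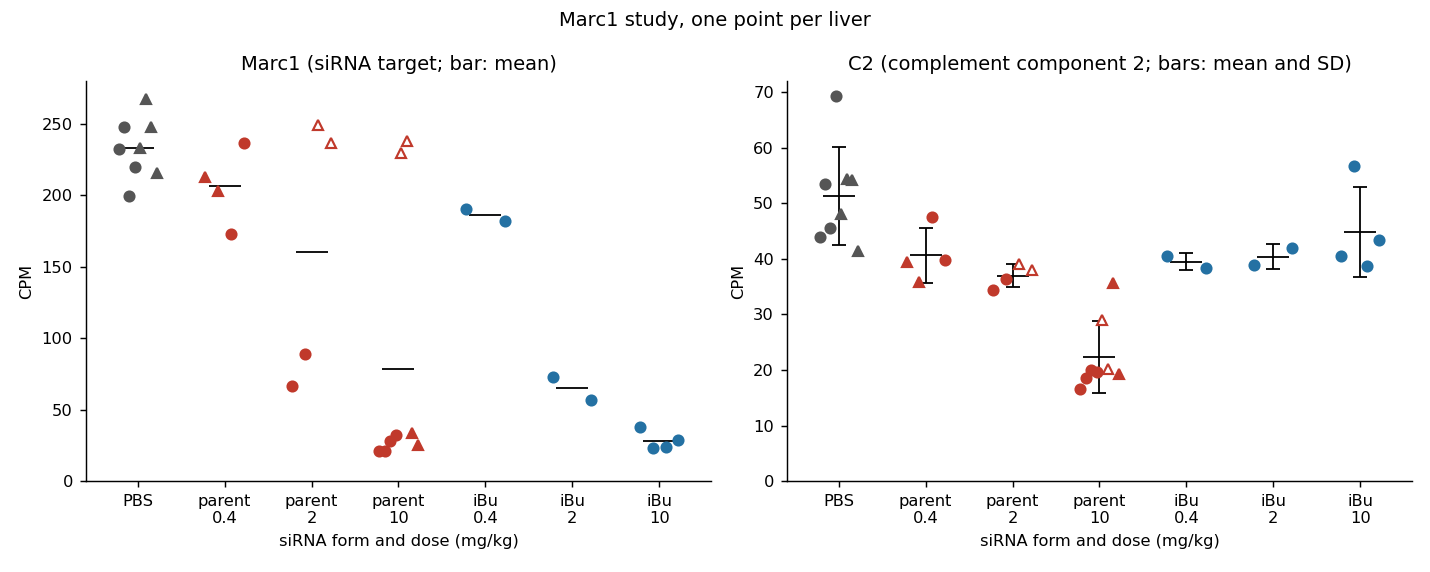
*C2* (one panel) and *Marc1* (the other) in CPM in each mouse of the *Marc1* study, by group, with the mean, and for *C2* also the SD. Triangles are titles T to AA and open symbols the 4 libraries with *Marc1* at the PBS level. All 8 mice labelled parent 10 mg/kg lie below the lowest PBS mouse (41.4 CPM) for *C2*.

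Below the highest dose *C2* stood between these groups. At 2 mg/kg the parent mice had 34.4, 36.4, 39.0 and 38.1 CPM, each below every PBS mouse, with a log2 change of −0.47 that was not called (adjusted p = 0.267). At 0.4 mg/kg the parent mice had 35.8 to 47.5 CPM, which overlapped the PBS mice (log2 −0.33, adjusted p = 0.802). Of these 4 mice 3 lay below every PBS mouse. No gene of the 35 was called at either dose, where 0.0255% and 0% of all genes were called. The 3 genes with the smallest unadjusted p at 2 mg/kg were *F11* (0.76, adjusted p = 0.182), *Cfi* (0.32, adjusted p = 0.204) and *C2*. Without mice Z-1 and Z-2, which leaves 2 mice, *C2* (−0.53, adjusted p = 0.399), *Cfi* (0.33, adjusted p = 0.363) and *F11* (0.56, adjusted p = 0.544) were not called either, nor was any other of the 35, where 0.0602% of all genes were. At 0.4 mg/kg they were *C6* of the membrane attack complex (−0.64, adjusted p = 0.758), *Cpb2* (−0.19, adjusted p = 0.802) and *C2*.

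Among the complement initiators, *Masp2*, the gene of the protease carried by mannose-binding lectin and of a short product without the protease domain, was lower by −0.58 (interval −0.88 to −0.28, edgeR adjusted p = 0.0122). Of its reads, 98.2% were assigned to a short coding transcript of 738 bases that ends at 148604417 on chromosome 4 of GRCm38, and 0.286% to the full-length transcript, which ends at 148615499. The value is therefore that of the short transcript, and the message of the full-length protease was hardly counted. Its lowest, median and highest levels were 58.1, 68.4 and 87.9 CPM in PBS mice and 28.2, 42.2 and 80.1 CPM in parent 10 mg/kg mice. Of 8 treated mice 7 lay below the lowest PBS mouse, and the exception was mouse Y-1 at 80.1 CPM. Without the 4 libraries that go against their labels the change was −0.81 (adjusted p = 0.000162). *C1ra* (−0.16), *Masp1* (−0.11) and the lectins *Mbl1* (0.24) and *Mbl2* (−0.23) were not called.

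In terminal complement, *C8a*, the alpha chain of C8, was lower by −0.36 (interval −0.53 to −0.20, edgeR adjusted p = 0.00487). PBS mice had 466, 530 and 671 CPM as lowest, median and highest, and parent mice 366, 426 and 511 CPM. Of the treated mice 7 of 8 were below all PBS mice. Of its reads, 88.1% were assigned to a noncoding transcript of 749 bases that shares its 3′ end with coding forms, so the level does not separate them. The other 5 terminal genes ranged from −0.17 for *C8g* to 0.07 for *Hc*, which encodes C5, and none was called. *Cfi*, the protease that inactivates C3b and C4b, was higher by 0.27 (interval 0.11 to 0.43, adjusted p = 0.0335). It ran from 129 to 185 CPM in PBS mice (median 154) and from 160 to 219 CPM in parent mice (median 185), so the groups overlapped. The call of *Cfi* was lost in 7 of 16 fits that left out 1 mouse, those without PBS mice A-2, A-4 or T-1 or parent mice F-2, F-3, Y-2 or Y-4 (adjusted p = 0.0525 to 0.0839). *Cfb*, the alternative pathway's counterpart of *C2*, was at 3.40 to 7.66 CPM in PBS mice and changed by −0.07, with an interval of −0.50 to 0.36.

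Of the 4 vitamin K-dependent procoagulants only *F9*, the protease missing in haemophilia B, was called, lower by −0.45 (interval −0.66 to −0.25, edgeR adjusted p = 0.00433). Its lowest, median and highest levels were 216, 248 and 277 CPM in PBS mice and 128, 174 and 218 CPM in parent mice. In 7 of 8 treated mice it was below the lowest PBS mouse. *F2*, prothrombin, changed by −0.09, *F10* by 0.03 and *F7* by −0.15. The anticoagulants *Proc* (0.16) and *Pros1* (−0.18) were not called, nor were *F5* (−0.28), the cofactor of factor Xa, and *F13b* (−0.22).

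In the contact system *Klkb1*, plasma prekallikrein, and *F11*, factor XI, are neighbouring paralogues on chromosome 8 of GRCm38, at 45266689 to 45294859 and 45241174 to 45262031, and they changed in opposite directions. *Klkb1* was lower by −0.29 (interval −0.43 to −0.16, edgeR adjusted p = 0.00534), from 222, 243 and 269 CPM in PBS mice to 176, 198 and 234 CPM in parent mice as lowest, median and highest. In 7 of 8 treated mice it was below all PBS mice. *F11* was higher by 0.63 (interval 0.25 to 1.01, adjusted p = 0.0343), from 22.3, 36.1 and 67.9 CPM to 34.9, 61.4 and 77.5 CPM, and only 2 of 8 treated mice exceeded the highest PBS mouse. *F11* also differed by title letter among PBS mice, at 22.3 to 34.5 CPM under A and 37.6 to 67.9 CPM under T. *F11* changed by 0.91 within A to L (adjusted p = 0.0211) and by 0.44 within T to AA (adjusted p = 0.424). Its call was lost in 9 of 16 fits that left out 1 mouse, those without PBS mice A-1, A-2, A-3, A-4 or T-1 or parent mice F-2, F-3, Y-2 or Y-4 (adjusted p = 0.0509 to 0.0824). *Kng1* (−0.21, adjusted p = 0.0572), the kininogen that prekallikrein cleaves, *Kng2* and *F12* (0.17) were not called.

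Among the serpins *Serpind1*, heparin cofactor II, was lower by −0.34 (interval −0.52 to −0.17, edgeR adjusted p = 0.0106), from 283, 320 and 395 CPM to 207, 254 and 298 CPM as lowest, median and highest, and 5 of 8 treated mice were below all PBS mice. *Serpinc1*, antithrombin, changed by −0.19 (adjusted p = 0.0834) and *Serping1*, the inhibitor of C1 and kallikrein, by 0.04. The genes of fibrinolysis, *Plg* (0.25), *Cpb2* (−0.06) and *Serpinf2* (−0.15), and the regulators *C4bp* (0.05) and *Vtn* (−0.12) were not called.

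**Figure D3:**
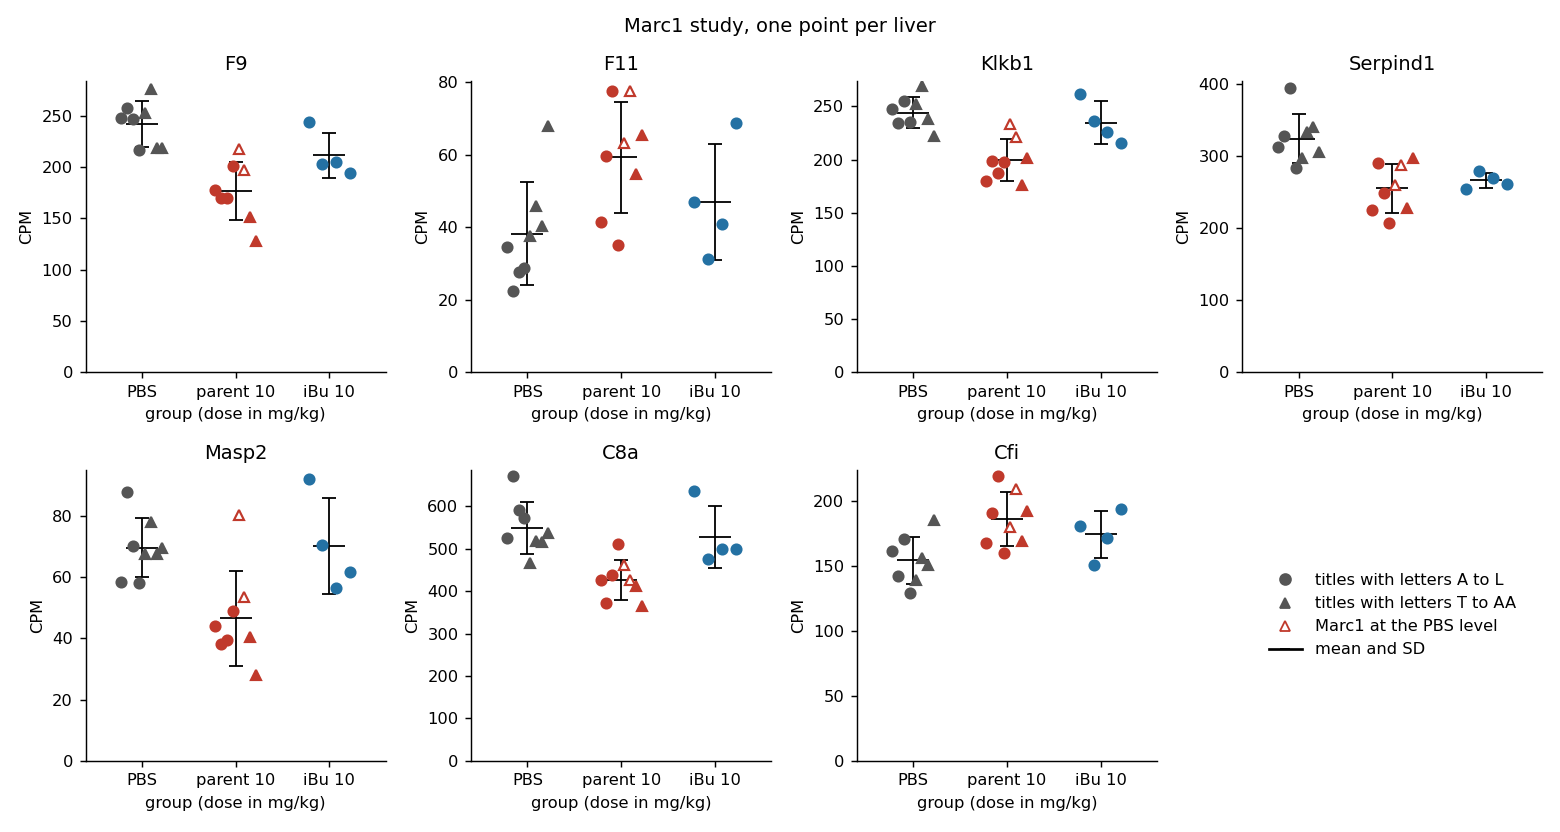
CPM per mouse for *F9*, *F11*, *Klkb1*, *Serpind1*, *Masp2*, *C8a* and *Cfi*, the genes called beside *C2* under *Marc1* parent at 10 mg/kg. Groups are PBS and parent 10 mg/kg (8 mice each) and iBu 10 mg/kg (4 mice), with the mean and SD. *F9*, *Klkb1*, *C8a* and *Masp2* each have 7 of 8 parent mice below the lowest PBS mouse.

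Without the 4 libraries that go against their labels 7 genes were called: *C2*, *Masp2*, *C8a*, *F9*, *Klkb1* and *Serpind1* again, with *Kng1* added (−0.25, edgeR adjusted p = 0.0345), where 7.89% of all genes were called. *F11* (0.54, adjusted p = 0.106) and *Cfi* (0.25, adjusted p = 0.0850) were then not called. Within titles A to L 5 of the 8 genes were called (*C2*, *F11*, *Klkb1*, *Masp2* and *C8a*), where 5.74% of all genes were called. Within T to AA none was called, where 0.2% of all genes were, and each of the 8 kept its direction in both. Mice Y-1 and Y-2, with *Marc1* at the PBS level, are among the 4 parent mice within T to AA.

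Under the iBu form of the *Marc1* siRNA, *Marc1* was at 22.9 to 37.9 CPM at 10 mg/kg, and none of the 35 genes was called at any dose, where 0.085%, 0% and 0% of all genes were called at 10, 2 and 0.4 mg/kg. At 10 mg/kg *C2* stood at 40.6, 56.7, 38.7 and 43.4 CPM in the 4 mice, which overlapped the PBS mice (log2 −0.19, interval −0.51 to 0.13). Of these 4 mice 2 lay below every PBS mouse. At 2 mg/kg the 2 mice had 38.9 and 42.0 CPM, 1 of them below every PBS mouse. At 0.4 mg/kg the 2 mice had 40.5 and 38.4 CPM, each below every PBS mouse. The 3 genes with the smallest unadjusted p at 10 mg/kg were *F7* (−0.50, adjusted p = 0.640), *Serpind1* (−0.28, adjusted p = 0.71) and *Cfb* (0.59, adjusted p = 0.738). *Cfb* was highest in mouse J-1 (15.3 CPM), which also had the highest summed level of 12 pancreatic acinar markers, 985 CPM against 102 to 192 CPM in PBS mice, and the part of that in the *Cfb* value was not tested. At 2 mg/kg *Serping1* (−0.44, adjusted p = 0.204), *F5* (−0.77, adjusted p = 0.341) and *F13b* (−0.46, adjusted p = 0.390) led, and at 0.4 mg/kg *F11* (0.86, adjusted p = 0.540), *Cfi* (0.30, adjusted p = 0.633) and *Plg* (1.36, adjusted p = 0.746), from 2 mice each.

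The question of structure, the linkage and the deoxy sugar together, is put by the direct difference between parent and iBu at the same dose. At 10 mg/kg *C2* was lower under the parent by −0.999 on the log2 scale (interval −1.31 to −0.68, edgeR adjusted p = 0.000198), and none of the 8 parent mice reached the lowest of the 4 iBu mice. The exact permutation test gave p = 0.00202, the smallest that 8 against 4 mice allow. This was 1 call of 35, against 1.72% of all genes. *Masp2* differed by −0.59 (interval −0.95 to −0.23, adjusted p = 0.0867), *C8a* by −0.31 (adjusted p = 0.127), *Klkb1* by −0.24 (adjusted p = 0.163) and *F9* by −0.26 (adjusted p = 0.366). *Serpind1* differed by −0.06, with an interval of −0.27 to 0.15. The intervals for *F11* (−0.13 to 0.80) and *Cfi* (−0.10 to 0.29) also span 0, so for these 3 genes no difference between the forms was shown. Without the 4 libraries that go against their labels *Masp2* (−0.82, adjusted p = 0.00186) and *Klkb1* (−0.30, adjusted p = 0.0361) were called beside *C2* (−1.05, adjusted p = 0.000209), 3 of 35 against 2.64% of all genes. All iBu mice have titles A to L, while parent mice have both letter series. Within A to L *C2* (−1.27, edgeR adjusted p = 4.39e-05) and *Masp2* (−0.72, adjusted p = 0.0200) were called, where 3.01% of all genes were.

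At 2 and 0.4 mg/kg none of the 35 genes was called between parent and iBu in the edgeR test, nor was any of the 11770 genes tested (0%). At an unadjusted p under 0.05 there were 1 and 0 of the 35, and 4.37% and 3.48% of all genes. *C2* differed by −0.13 (interval −0.58 to 0.32) at 2 mg/kg and by 0.04 (interval −0.41 to 0.49) at 0.4 mg/kg, so differences of the size seen at 10 mg/kg lie outside these intervals. The smallest unadjusted p at 2 mg/kg belonged to *Serping1* (0.43, adjusted p = 0.702), with the 2 iBu mice at 451 and 580 CPM and the 4 parent mice at 690, 607, 766 and 720 CPM, followed by *F5* (0.48) and *Masp2* (−0.42), both with an adjusted p of 1. At 0.4 mg/kg *F11* (−0.58), *Plg* (−1.31) and *C6* (−0.46) led, none of them called. Without mice Z-1 and Z-2 the differences at 2 mg/kg were −0.19 for *C2* and 0.33 for *Serping1* (adjusted p = 0.976), and none of the 35 was called, where 0.0086% of all genes were.

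**Figure D4:**
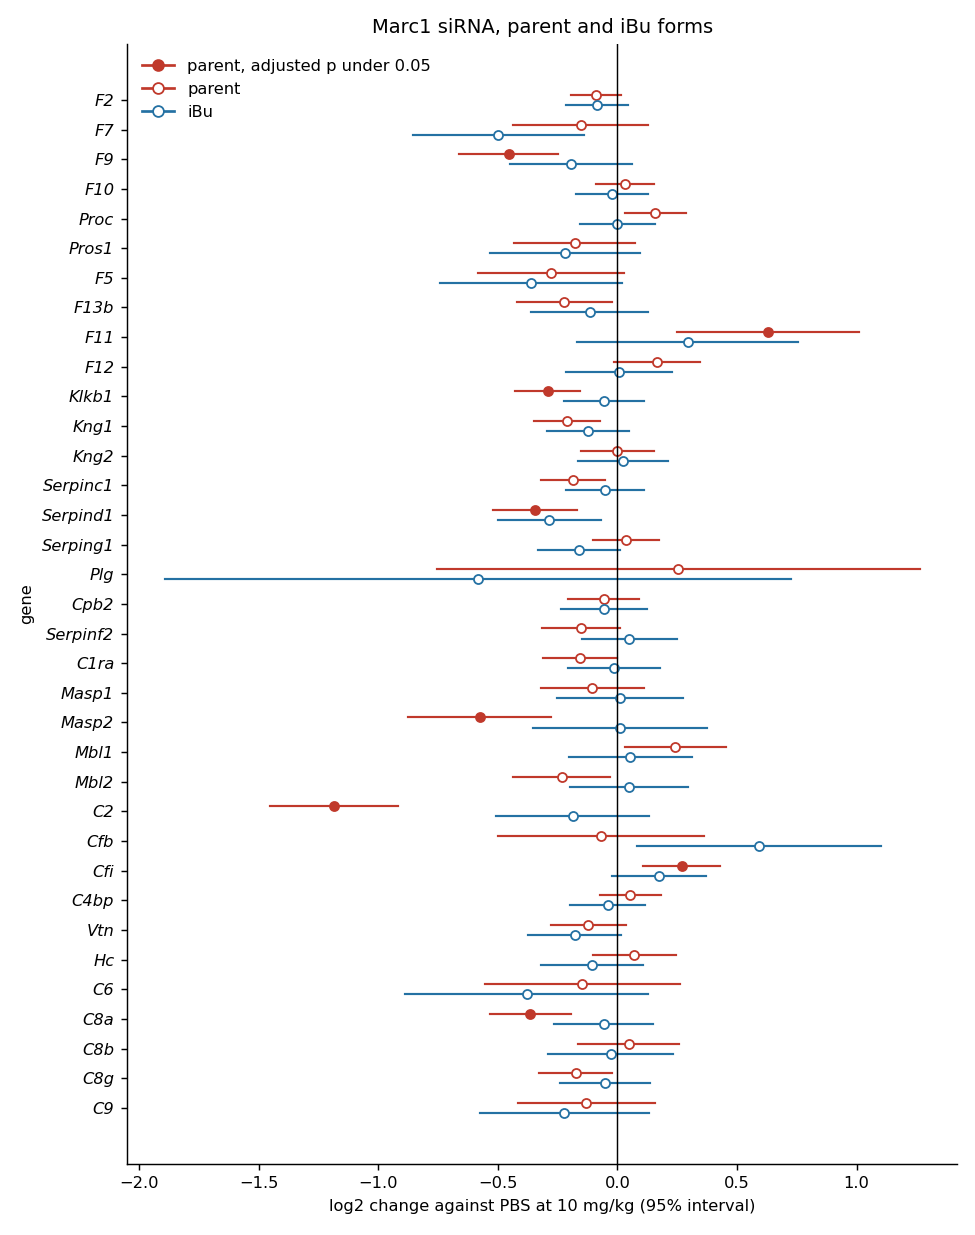
Log2 change from PBS with 95% intervals for the 35 genes under *Marc1* parent and iBu at 10 mg/kg, both against the same 8 PBS mice. Filled symbols mark calls at an adjusted p under 0.05. The intervals for *C2* (−1.45 to −0.92 for parent, −0.51 to 0.13 for iBu) do not overlap.

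The *Ttr* siRNAs were given at up to 100 mg/kg and 1 of the 35 genes was called. Under the parent, *Pros1*, which encodes protein S, the cofactor of activated protein C, was higher at 100 mg/kg by 0.53 (SE 0.123, interval 0.28 to 0.79, edgeR adjusted p = 0.0258). This was 1 call of 35, against 2.59% of the 8256 genes tested. It was at 51.3, 52.1, 58.1 and 57.4 CPM in the PBS mice and at 100.2, 81.6, 62.2 and 73.3 CPM at 100 mg/kg. It was at 72.8, 75.2, 71.9 and 62.7 CPM at 10 mg/kg and at 62.2, 67.1, 67.5 and 62.3 CPM at 30 mg/kg. All 12 treated mice were above all 4 PBS mice, and the exact permutation test gave p = 0.0286 at each dose, the smallest that 4 against 4 mice allow. The changes of 0.37 and 0.24 at the lower doses were not called (adjusted p = 0.291 and 0.438). The call at 100 mg/kg was lost in 4 of 8 fits that left out 1 mouse, those without PBS mouse 1 or 2 or treated mouse 1 or 2 (adjusted p = 0.0670 to 0.0730), and with the replicate block (adjusted p = 0.0509).

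At 10 and 30 mg/kg none of the 35 genes was called under the parent, where 0.0727% and 1.13% of all genes were. *Cpb2*, carboxypeptidase B2, which slows fibrinolysis, was at 224.2, 235.5, 260.0 and 259.9 CPM in PBS mice and 321.8, 283.0, 276.7 and 296.7 CPM at 100 mg/kg. The groups did not overlap, but the change of 0.27 was not called (adjusted p = 0.144). The regulator *C4bp* followed with 0.26 (adjusted p = 0.179). At 10 mg/kg *Mbl2* (0.40, adjusted p = 0.300) and *F13b* (−0.38, adjusted p = 0.313) came after *Pros1*. At 30 mg/kg *Serping1* (−0.25, adjusted p = 0.367) and *F2* (−0.16, adjusted p = 0.434) came before it. *C2* changed by 0.17, −0.03 and 0.19 at 10, 30 and 100 mg/kg, and *F9* by −0.06, 0.05 and 0.14.

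MOP and iBu gave no call among the 35 genes at any dose, where 0.0102% of 9838 genes were called at each MOP dose and 0.0407%, 0.0203% and 0.0203% at 10, 30 and 100 mg/kg of iBu. In their study *Pros1* was at 77.9, 71.7, 72.5 and 72.5 CPM in PBS mice. At 100 mg/kg it was at 50.8, 51.9, 68.7 and 63.3 CPM under MOP, below every PBS mouse, and at 48.5, 56.1, 50.4 and 74.3 CPM under iBu, where 1 mouse overlapped. Under 10 mg/kg it was at 43.6, 61.6, 62.0 and 54.8 CPM under MOP and at 56.7, 65.8, 65.0 and 65.5 CPM under iBu, each mouse below every PBS mouse. At 30 mg/kg it was at 61.5, 69.2, 81.1 and 83.5 CPM under MOP and at 79.2, 79.6, 48.8 and 65.8 CPM under iBu, with 2 mice below and 2 above all PBS mice in each. The changes of −0.40, 0.01 and −0.33 under MOP and of −0.22, −0.10 and −0.36 under iBu at 10, 30 and 100 mg/kg were not called (smallest adjusted p = 0.685).

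The 3 genes with the smallest unadjusted p under MOP at 10 mg/kg were *Pros1* (−0.40), *C8a* (−0.32) and *Hc* (−0.30), each with an adjusted p of 0.685. At 30 mg/kg they were *Mbl1* (0.41, adjusted p = 0.492), *Klkb1* (−0.22) and *Hc* (0.28), and at 100 mg/kg *F13b* (−0.48, adjusted p = 0.404), *Cpb2* (−0.20) and *Kng2* (−0.25). Under iBu *Klkb1* (−0.23, adjusted p = 0.650), *C9* (−0.39) and *Serpinc1* (−0.15) led at 10 mg/kg. At 30 mg/kg *C8g* (−0.17, adjusted p = 0.786), *Cfb* (0.42) and *Klkb1* (−0.15) led, and at 100 mg/kg *Kng2* (−0.29, adjusted p = 0.811), *Pros1* and *Kng1* (−0.22).

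Between MOP and iBu no gene was called at 10, 30 or 100 mg/kg, either among the 35 or among all 9838 (0%). At an unadjusted p under 0.05 the numbers were 2, 1 and 2 of the 35, and 8.70%, 5.88% and 5.63% of all genes. At 100 mg/kg *Pros1* differed by 0.03 (interval −0.28 to 0.35) and the smallest unadjusted p belonged to *Mbl1* (0.26, adjusted p = 0.849), *Hc* (0.26) and *F13b* (−0.23). For 10 mg/kg it belonged to *Hc* (−0.28, adjusted p = 0.527), *Cfb* (−0.52) and *Mbl1* (−0.22), and at 30 mg/kg to *Mbl1* (0.36, adjusted p = 0.739), *Mbl2* (−0.24) and *Kng2* (−0.23). Half-widths of the 95% intervals for the 35 genes had a median of 0.24 in these differences.

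Parent and modified forms were given in separate studies, so the change under the parent was compared with the change under MOP or iBu, each from the PBS mice of its own study. The chemistry and the study cannot be told apart in these differences. At 100 mg/kg *Pros1* changed by 0.87 more under the parent than under MOP (interval 0.46 to 1.27, edgeR adjusted p = 0.0241) and by 0.91 more than under iBu (interval 0.50 to 1.31, adjusted p = 0.0245). The call against MOP was lost in 7 of 16 fits that left out 1 mouse, those without mouse 1 or 2 of the first PBS group, of the parent or of MOP, or mouse 1 of the second PBS group (adjusted p = 0.0528 to 0.0824). The call against iBu was lost in 9 of 16, those without mouse 1 or 2 of the first PBS group or of the parent, mouse 1 or 3 of the second PBS group, or mouse 1, 2 or 3 of iBu (adjusted p = 0.0533 to 0.110). The level in PBS mice also differed between the studies, at 54.7 ± 3.49 and 73.6 ± 2.83 CPM (SD, n = 4 each), with no overlap. At 100 mg/kg the mice themselves ran from 62.2 to 100.2 CPM under the parent and from 48.5 to 74.3 CPM under the modified forms. *Cpb2* changed by 0.47 more under the parent than under MOP (interval 0.24 to 0.71, adjusted p = 0.0486) and by 0.43 more than under iBu (adjusted p = 0.112). The call of *Cpb2* against MOP was kept in 3 of 16 fits that left out 1 mouse, those without mouse 3 of the first PBS group, of the parent or of MOP, and lost in the other 13 (adjusted p = 0.0526 to 0.113). It was also lost without the filter (adjusted p = 0.443) and with the replicate block (adjusted p = 0.0596). The next genes were *F10* against MOP (0.38, adjusted p = 0.260) and *Serpinf2* against iBu (0.35, adjusted p = 0.302).

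These were 2 and 1 of the 35 genes, against 0.506% and 0.233% of the 9877 genes tested. At 10 mg/kg none of the 35 was called (0% and 0.0202% of all genes), with *Pros1* at 0.77 (adjusted p = 0.206) and 0.59 (adjusted p = 0.326), followed by *Cfi* (0.38) and *Klkb1* (0.29) against MOP and *Klkb1* (0.34) and *Mbl2* (0.49) against iBu. At 30 mg/kg none was called either (0.324% and 0.121% of all genes), with *Pros1* at 0.26 and 0.36. There *Mbl1* (−0.37), *Serping1* (−0.38) and *Cfb* (−0.69) led against MOP, and *Cfb* (−0.92, adjusted p = 0.450) and *Serping1* (−0.37) against iBu. Of the reads of *Cpb2*, 81.1% and 84.2% in the first and second *Ttr* study were assigned to a transcript with a retained intron, so these values do not measure the coding transcript alone.

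**Figure D5:**
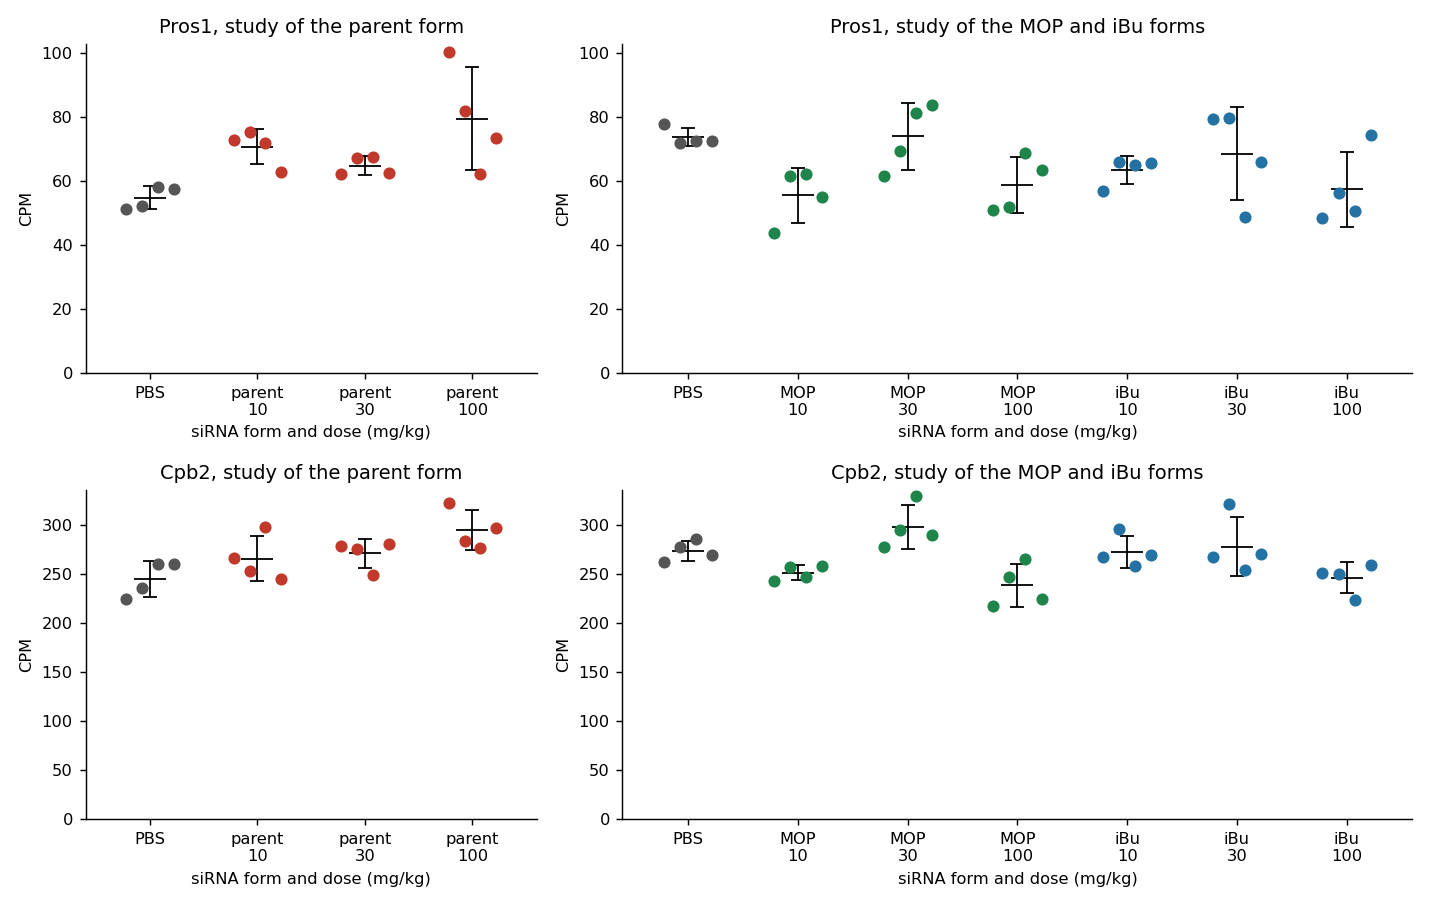
*Pros1* and *Cpb2* in CPM per mouse in the first *Ttr* study (PBS and parent) and the second (PBS, MOP and iBu), with the mean of each group of 4. *Pros1* lies above all PBS mice in the 12 parent mice, and the PBS groups of the studies lie at 51.3 to 58.1 and 71.7 to 77.9 CPM.

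Matches to the seed of the *Ttr* guide strand were looked for because a guide can lower other messages through pairing of its bases 2 to 8. The motifs are CTCTATA, the complement of these bases, and TCTATAA, which shares 6 letters with it and has an A opposite base 1. They were searched on the sense strand of the longest annotated 3′ untranslated region of each gene. Of the 35 genes, 2 held a match (5.71%), *C4bp* and *Cfb*, each to TCTATAA, against 13.9% of 21685 genes with any match. The regions ran from 80 bases (*Vtn*) to 3403 bases (*Serpinc1*) in the 35 genes, and lengths were not matched between the sets. A longer region can hold a match more easily, so these shares are values only. *Cfb* changed by −0.22, −0.51 and −0.49 and *C4bp* by 0.12, 0.09 and 0.26 under the parent at 10, 30 and 100 mg/kg. Neither was called. The *Marc1* guide was not analysed here.

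Other genes of the same systems were counted alongside. Under *Marc1* parent at 10 mg/kg 0 of 3 fibrinogen genes, 0 of 6 vitamin K cycle genes and 0 of 15 liver transcription factors tested were called. Of all genes tested there 6.69% were called, 4.09% lower and 2.61% higher, and the list counts that follow stand beside these shares. Among 24 other complement genes 1 was lower, *C3* (−0.38, edgeR adjusted p = 0.00522), the component that the *C2*-containing convertase cleaves. Among 19 other coagulation genes 1 was lower, *Pzp*, a protease-trapping macroglobulin (−0.20, adjusted p = 0.0475), and among 20 acute phase genes 1 was lower, *Saa1* (−1.80, adjusted p = 0.0225). Of 9 hepatocyte markers tested 1 was lower, *Cps1* (−0.40, adjusted p = 0.0415), and their summed level ran from 48267 to 56074 CPM in PBS mice and from 41199 to 52285 CPM in parent mice. Of 8 pancreatic acinar markers tested 1 was higher, *Cela1* (0.43, adjusted p = 0.0274), with the list's sum at 102 to 192 CPM in PBS mice and 165 to 236 CPM in parent mice. No marker of macrophages, endothelium, stellate cells, cholangiocytes or erythroid cells was called, and no lymphocyte marker passed the filter. The part of these cells in the results was not tested.

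Under *Ttr* parent at 100 mg/kg 2.59% of all genes tested were called, 1.61% lower and 0.981% higher. There 1 of 3 fibrinogen genes was lower, *Fgg* (−0.62, edgeR adjusted p = 0.0271), the gamma chain. Of 13 other coagulation genes 1 was lower, *Lman1* (−0.55, adjusted p = 0.0156), the cargo receptor that carries factors V and VIII out of the endoplasmic reticulum. Of 20 acute phase genes 1 was higher, *Crp* (0.45, adjusted p = 0.0340), and none of 22 other complement genes and 5 vitamin K cycle genes was called. *Fgg* was also lower at 30 mg/kg (−0.63, adjusted p = 0.0412), where 1.13% of all genes were called. In the difference of changes at 30 mg/kg all 3 fibrinogen genes were lower under the parent than under MOP, by −1.16 to −1.10, and 2 of 3 than under iBu. Of all genes 0.324% and 0.121% were called there. Both sides enter this difference. The fibrinogen sum ran from 6647 to 7031 CPM under the parent, against 8938 to 12850 CPM in its PBS mice. It ran from 12638 to 17732 CPM under MOP and 12236 to 15930 CPM under iBu, against 9649 to 11944 CPM in their PBS mice. The summed acute phase level, which includes other genes of the same response, ran from 12520 to 35991 CPM under MOP and from 14155 to 25534 CPM under iBu at that dose, against 10091 to 16359 CPM in their PBS mice.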

How the data were processed

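RNA of 76 mouse livers was profiled by QuantSeq 3′ sequencing, and groups were taken from the compound and dose in the labels. Per the submitters' processing notes, the authors aligned reads with STAR to mm10 and estimated transcript levels with Salmon 0.7. Duplicates were removed according to the file names, with the method not stated. The values used are deposited expected counts, the reads that Salmon assigned to each transcript, not normalized further by the authors. The deposited TPM values, also made by the authors with Salmon, were not used. Estimated counts were summed per gene by GENCODE vM21 and rounded. Genes with low counts were removed with filterByExpr, library sizes were scaled by TMM, and each study was fitted by group with edgeR 4.0.16 (quasi-likelihood test, R 4.3.3), with p-values adjusted over 8256, 9838 and 11770 genes. For parent against modified *Ttr* forms all 44 livers were fitted together (9877 genes). Log2 CPM for the exact permutation tests used a prior count of 2. The scripts were tested on simulated data. The labels do not tie replicates to litters or cages, so p-values measure the spread between these mice. Mice with the same number did not deviate together (mean correlation −0.0262, −0.0139 and −0.00438 in the 3 studies), so numbers were not taken as pairs. Alternatives were RLE size factors, no filter, DESeq2 1.42.0, the replicate block, the title letters and each mouse left out. Leaving out the 4 libraries with *Marc1* at the PBS level was chosen after seeing the data. The 35 genes and the other gene lists were chosen with earlier results of these data known. Genes are described with values where called in any comparison, or among the 3 smallest unadjusted p-values of one. Intervals cover replicate spread as modelled by edgeR.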

Additional observations from a re-analysis of the deposited data

Results flagged for a closer look

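In the *Marc1* study *C2* was lower under the parent than under iBu at 10 mg/kg by −0.999 on the log2 scale, a difference between compounds that passed the edgeR test. Between the *Ttr* studies the changes of *Pros1* at 100 mg/kg differed by 0.87 (parent against MOP) and 0.91 (parent against iBu), and that of *Cpb2* by 0.47 (parent against MOP).

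Of 26 groups of 4 to 8 mice examined for the called genes, 2 held a mouse far from the others by Dixon's test, where chance marks about 1 in 20 groups. *Pros1* was at 77.9 CPM in PBS mouse 1 of the second *Ttr* study, against 71.7 to 72.5 CPM in the other 3. *C2* was at 69.3 CPM in PBS mouse A-4 of the *Marc1* study, where the other 7 ran from 41.4 to 54.4 CPM.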

How the results depend on the processing

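None of the 13 called differences changed direction under the alternatives run on it. Leaving out each mouse in turn gave 6 to 9 called genes for *Marc1* parent at 10 mg/kg, 0 to 1 at 2 mg/kg, and 1 to 2 for parent minus iBu at 10 mg/kg. For the *Ttr* forms at 100 mg/kg it gave 0 to 1 for parent against PBS, 0 to 2 for parent minus MOP and 0 to 1 for parent minus iBu. The share of all genes called in each of these fits is not given here, so the ranges are values only. *C2*, *F9*, *Klkb1*, *C8a*, *Serpind1* and *Masp2* under *Marc1* parent at 10 mg/kg were called in all 16 such fits, as was *C2* for parent minus iBu in its fits, and the mice whose omission ended other calls are named beside those calls. For *Marc1* parent at 10 mg/kg, 5 genes were called within titles A to L and 0 within T to AA, against 5.74% and 0.2% of all genes. For parent minus iBu at 10 mg/kg, 2 were called without the filter and 4 with DESeq2, where 1.2% and 4.46% of all genes were. For the same difference 2 were called within A to L, against 3.01% of all genes. Without the 4 libraries with *Marc1* at the PBS level 3 were called, against 2.64% of all genes. DESeq2 called 2 genes for *Ttr* parent at 100 mg/kg, and 1 for *Marc1* parent and 1 for iBu at 2 mg/kg. It also called 1 for *Ttr* parent minus MOP at 10 mg/kg and 2 for parent minus iBu at 100 mg/kg. In these DESeq2 results 5.57%, 1.95%, 1.35%, 0.389% and 3.34% of all genes with an adjusted p were called, in that order. Without the filter, 1 gene (*Plg*) was called for MOP minus iBu at 10 and at 30 mg/kg, against 0.828% and 0.54% of all genes. There was 1 call for parent minus MOP at 100 mg/kg without the filter, against 0.964% of all genes. The replicate block left 0 genes called for *Ttr* parent at 100 mg/kg (*Pros1* 0.53, adjusted p = 0.0509), where 1.73% of all genes were. It left 1 for parent minus MOP at 100 mg/kg (0.486% of all genes), and moved no other count of called genes by over 1.5 times. The causes of these moves were not tested. Groups of 2 mice at the lower iBu doses and the wide interval of *Plg* limit what differences could be seen.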

Other observations

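Some of the 35 genes stood at different levels in the PBS mice of the studies, which were normalised separately and differ in day, so these are values only. The deposited counts also cover different transcripts. There were 146157 in the *Marc1* study, of which 134758 matched GENCODE vM21, against 140581 and 138603 in each *Ttr* study. The part of this in the levels was not tested. *F5*, the cofactor of factor Xa, was at 411 to 612 CPM in the *Marc1* study, against 150 to 174 and 192 to 235 CPM in the *Ttr* studies. *F12*, which starts the contact system, was at 64.3 to 88.4 CPM in the *Marc1* study, against 224 to 268 and 212 to 263 CPM. *Pros1* was at 17.4 to 31.1 CPM in the *Marc1* study, where its change under the parent at 10 mg/kg was −0.18.

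*Plg*, plasminogen, spread most among mice of 1 group. In the 8 *Marc1* PBS mice it ran from 5.29 to 54.6 CPM, with 7 mice at or below 11.1 CPM and mouse T-4 at 54.6 CPM, and in the 8 parent 10 mg/kg mice from 1.94 to 40.0 CPM. In the PBS mice of the *Ttr* studies it ran from 36.8 to 57.2 and from 29.6 to 55.4 CPM. Its 95% interval for *Marc1* parent at 10 mg/kg had a half-width of 1.01, where the median over the 35 genes was 0.18.

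*F11* was above the median of the 8 PBS mice in most *Marc1* siRNA groups, with log2 changes of 0.28, 0.76 and 0.63 under the parent at 0.4, 2 and 10 mg/kg and 0.86, 0.77 and 0.29 under iBu at the same doses. All 6 comparisons share the same PBS mice, and the change at 10 mg/kg of the parent was the only one called.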
